A study of Mus musculus with 25 samples.

Results

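The 10 genes described here are the immediate early genes Fos, Fosb, Fosl1, Fosl2, Jun, Junb, Jund, Egr1, Myc and Ier3, chosen by symbol from the 24984 genes of the count table. Their levels were followed in 7 groups of libraries. All 10 were present in the table and passed the filter on low counts in every comparison. BMEL cells are bipotential precursors of the epithelial lineages of the liver, derived from embryos of a C57BL/6 and C3H cross, and the parental line was derived from 1 clone. The cultured groups were BMEL WT (labelled as carrying the empty vector), RasLOW and RasHIGH, with 3 libraries each. RasLOW and RasHIGH cells carried an oncogenic human H-Ras linked to a fluorescent protein, were separated by the intensity of its fluorescence, and overlapped in the level of the oncogene. All cultures grew exponentially on collagen in medium with serum, insulin, IGFII and EGF. The sorted groups came from 4 athymic nude mice, which lack T cells but keep innate immune cells. Each mouse gave tumour cells and stromal cells of a liver tumour and of a peritoneal tumour, formed by BMEL cells injected into the liver. The tumours were dissociated and the cells separated by the vector's fluorescent protein into positive (tumour) and negative (stromal) fractions. The labels do not give which Ras population was injected. The study sequenced tumour cells positive for the fluorescent protein Venus. In its experiment on tumours of both sites Venus marked RasHIGH cells, though RasLOW cells with Venus were also made. The sources used here do not say whether the cultured cells were sorted before lysis.

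Immediate early genes are transcribed within minutes of a growth factor, stress or wound signal without need for new protein. Ras, through the kinases Raf, Mek and Erk, is among their best known inducers: Erk phosphorylates ternary complex factors that act with SRF on the CArG boxes of Fos, Fosb and Egr1. Fos and Jun proteins pair through leucine zippers to form AP-1, a transcription factor of proliferation, invasion and the wound response. Egr1 is a zinc finger transcription factor, Myc drives ribosome synthesis and growth together with its partner Max, and Ier3 is an early protein that modulates Erk signalling and survival. Tissue dissociation and cell sorting are themselves known inducers of this class of genes. Here growth in the animal, dissociation and sorting separate the sorted from the cultured groups together, and their effects cannot be told apart.

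Libraries held 20818989 to 51241336 counts, so 3 counts corresponded to at most 0.144 CPM (counts scaled to library size), far below the level of these genes. CPM are given after TMM scaling over all 25 libraries. The 10 genes together took 0.158 to 0.166% of all counts in BMEL WT cells, 0.132 to 0.238% in RasLOW and 0.102 to 0.302% in RasHIGH cells. They took 0.489 to 0.600% in liver tumour cells, 0.436 to 0.724% in peritoneal tumour cells, 0.803 to 1.06% in liver stroma and 1.14 to 1.42% in peritoneal stroma. Krt8, a keratin of simple epithelia, marked tumour cells (3861 CPM in the liver) against liver stroma (552 CPM), whereas the epithelial marker Epcam stayed under 1 CPM in the cultured and tumour cells. The summed CPM of 6 leukocyte markers in tumour cells was 0.443 to 0.674% of that in the stroma of the same mouse in the liver, and 0.374 to 3.49% in the peritoneum. That of 6 fibroblast markers was 0.486 to 1.499% and 0.361 to 2.64%. The highest values of both lists in the peritoneum belonged to the peritoneal tumour library of mouse 1, so results that rest on it are also given without it. Of 4 endothelial markers, Cdh5 reached 125 CPM in liver tumour cells while Pecam1, Kdr and Tek lay at 1.94, 0.86 and 0.22 CPM. In RasHIGH cells Cdh5 was at 8.49 CPM. In bulk RNA, fewer cells of a type and less RNA per cell cannot be told apart. Markers of hepatocytes summed to at most 210 CPM in any library, and those of mesothelial cells to 551 to 2620 CPM in cultures, 218 to 473 CPM in tumour cells and 71.6 to 127 CPM in stroma. The mouse Hras gene lay between 46.7 and 101 CPM in all cultures and does not measure the human transgene.

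**Figure D1:**
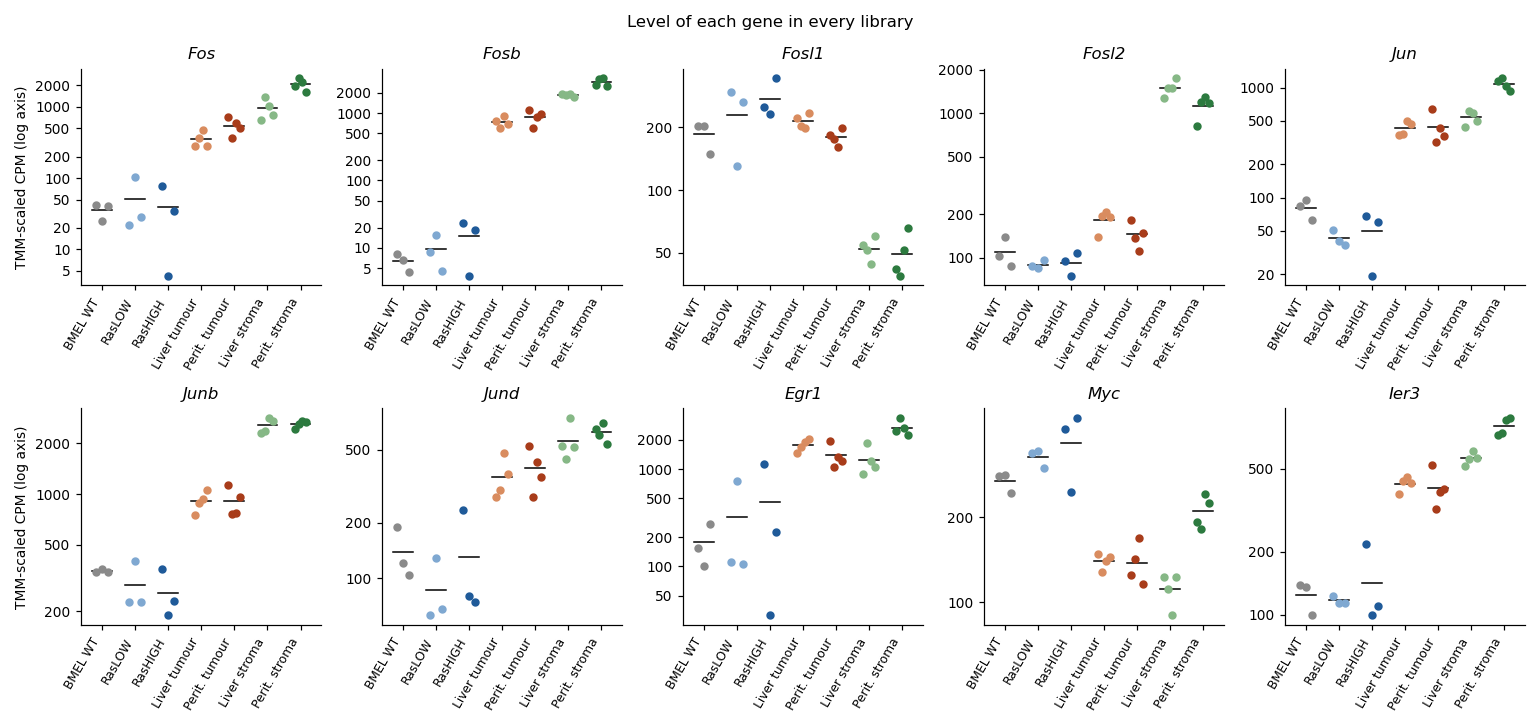
CPM of each of the 10 genes in every library (log axes, each panel with its own range) in the 7 groups; points are libraries and bars are group means. The 8 tumour libraries lay above all 9 cultures for 6 genes (Fos, Fosb, Jun, Junb, Jund and Ier3) and below them for Myc, while the RasLOW and RasHIGH libraries scattered widely for Fos and Egr1.

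The study's methods describe 3 independent biological samples for its cell lines, while the labels do not say how these were kept apart. P-values between cultured groups measure only the spread between these libraries. The first question was whether the Ras populations differed from control cells in these targets of Erk signalling. Fos (chr12:86814840-86818223 on mm9, plus strand), the founding partner of Jun, was counted at 41.8, 25.2 and 40.7 CPM in BMEL WT cells. It was counted at 21.8, 103 and 28.2 CPM in RasLOW and at 78.3, 4.32 and 34.1 CPM in RasHIGH cells. The RasHIGH libraries thus held both the highest but one and the lowest Fos level of all 9 cultures. Fosb (chr7:19888070-19895394, minus strand), a close relative of Fos, was scarce, reaching 8.22 CPM at most in BMEL WT, 15.4 in RasLOW and 23.2 in RasHIGH cells.

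Egr1 scattered widely. The libraries of BMEL WT held 153, 99.9 and 276 CPM. Those of RasLOW held 111, 754 and 105 CPM, and those of RasHIGH 1123, 31.3 and 224 CPM. In each Ras population a single library was high, while the others lay within or below the range of BMEL WT. The SD of log2 CPM was 2.57 in RasHIGH and 1.61 in RasLOW cells, against 0.215 to 0.453 in the 4 sorted groups. The high RasHIGH and RasLOW libraries carry consecutive identifiers in the labels, as do RasHIGH replicate 2 and RasLOW replicate 3. Whether handling of these pairs bore on the levels was not tested. RasHIGH replicate 2 had the lowest level of its group for 9 of the 10 genes, whereas it was lowest for 27.3% of 11046 genes of at least 5 CPM. RasHIGH replicate 1 was highest for 7 of 10, against 47.2% of those genes.

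Fosl1 (chr19:5447703-5455945, plus strand), a Fos relative that stays high under sustained Erk activity, was the most abundant Fos family transcript of the cultures. BMEL WT cells had 202, 203 and 149.7 CPM of it, RasLOW cells 295, 130.4 and 266 CPM, and RasHIGH cells 249.9, 231 and 344 CPM. All 3 RasHIGH libraries exceeded all 3 of BMEL WT, and the log2 fold change was 0.54 ± 0.20 (SE). This difference did not pass, with an adjusted p of 0.102 by edgeR's quasi-likelihood test. It was the only member whose RasHIGH and BMEL WT libraries did not overlap, and 42.8% of all genes tested did not overlap in that comparison. Fosl2 (chr5:32438845-32460204, plus strand), the other Fos relative without a strong activation domain, lay between 75.3 and 139.7 CPM in all cultures.

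Of the Jun genes, Jun (chr4:94715725-94718913, minus strand), the main transforming partner of Fos, stood at 84.3, 94.8 and 62.0 CPM in BMEL WT and at 50.7, 40.3 and 36.7 CPM in RasLOW cells. All RasLOW libraries were below all BMEL WT libraries, and the log2 fold change was -0.95 ± 0.20 with an adjusted p of 0.0355. Jun was the only one of the 10 genes called between RasLOW and BMEL WT, where 5.96% of all 12307 genes tested were called, 1.92% as higher and 4.05% as lower. Jun and Myc were the 2 members whose libraries did not overlap there, against 28.5% of genes. The call for Jun rested on 5 of the 6 libraries: it was lost without any 1 of the 3 BMEL WT libraries or without RasLOW replicate 1 or 3, with adjusted p-values of 0.0511 to 0.142. Without RasLOW replicate 2, Junb (adjusted p = 0.0105) and Jund (adjusted p = 0.0303) also passed as lower in RasLOW cells. Lane 4 held all Ras cultures and BMEL WT replicate 3 alone of the controls. The Jun level of that control, 62.0 CPM, was the lowest of BMEL WT and above the 3 RasLOW libraries. BMEL WT replicate 3 was lowest of its group for 7 of the 10 genes, against 28.2% of 11046 genes of at least 5 CPM. The part of lane in the call for Jun was not tested. In RasHIGH cells Jun was at 68.3, 19.5 and 59.7 CPM, which overlapped BMEL WT (log2 fold change -0.75 ± 0.42, adjusted p = 0.258). Junb (chr8:87500811-87502617, minus strand), often an antagonist of Jun, was steady in BMEL WT cells (341, 358 and 343 CPM) and ran from 189 to 399 CPM in the Ras populations. Jund (chr8:73221638-73224515, plus strand), the Jun gene least dependent on stimulation, ran from 62.8 to 236 CPM over the 9 cultures.

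Myc (chr15:61816946-61821929, plus strand) stood at 279, 282 and 243 CPM in control cells, while RasLOW cells had 338, 342 and 298 CPM and RasHIGH cells 410.5, 245 and 448 CPM. The RasLOW libraries lay above those of BMEL WT, but neither this difference (0.25 ± 0.14 on the log2 scale, adjusted p = 0.351) nor that of RasHIGH (0.42 ± 0.22, adjusted p = 0.234) passed. Ier3 (chr17:35958629-35959868, plus strand) lay between 99.3 and 139.5 CPM in 8 of the 9 cultures and at 217 CPM in RasHIGH replicate 1.

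No member was called by edgeR between RasHIGH and BMEL WT cells, where 22.6% of 12331 genes were called. There 1 member, Fosl1, had an unadjusted p under 0.05, and DESeq2 called 0. The shares of all genes by these rules are not given here for this comparison or the next. Between RasHIGH and RasLOW cells 0 members were called by edgeR, against 0.0752% of 11962 genes, 0 had an unadjusted p under 0.05 and DESeq2 called 0. The libraries of these populations overlapped for all 10 members, whereas 15.8% of genes did not overlap. In that comparison the log2 fold change had an SE of 1.23 for Egr1 and 0.96 for Fos, so differences of severalfold in these genes were not detectable with 3 libraries a group. Without RasHIGH replicate 2, Fosb (1.67, adjusted p = 0.0213) and Myc (0.64, adjusted p = 0.0358) passed as higher in RasHIGH than in BMEL WT cells. Without RasHIGH replicate 1, Junb (-0.75, adjusted p = 0.0038) and Jund (-0.86, adjusted p = 0.0422) passed as lower.

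Genes that act beside these 10 were counted in the same comparison. Of 12 delayed early genes of Erk signalling that were tested, 4 rose in RasHIGH cells: the Ets factors Etv4 (1.56) and Etv5 (1.10), and the Ras pathway inhibitors Spred2 (0.62) and Spred3 (1.21), all as log2 fold changes. Of all 12331 genes tested, 1341 were higher and 1448 lower. Of 34 other immediate early genes, 4 rose (Zfp36l2, Socs3, Trib1 and Egr3) and 8 fell, among them the stress gene Gadd45b (-3.17) and the matrix protein gene Ccn2 (-2.72). Of 13 AP-1 target genes, 4 rose (Hmga1, Hmga2, Mmp13 and Mmp10), and Ccnd1 was among those that fell. Of 18 Myc target genes Ldha rose, and of 11 Myc partners and antagonists Mxi1, Mlx and Mnt rose and Mycn fell. Mycn, a relative of Myc, had 1.29 ± 0.92 CPM (SD, n = 3) in BMEL WT cells and 0 counts in all RasLOW and RasHIGH libraries, which allows at most 0.144 CPM. Of 8 partner bZIP genes 3 rose (Jdp2, Mafg and Atf2) and Mafk fell, of 6 SRF genes Elk1 rose, and of 12 heat shock genes Hsp90ab1 rose and Dnajb1 fell. The median log2 fold change was 0.64 over the delayed early genes, -0.26 over the other immediate early genes and -0.02 over all genes tested.

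Tumour cells were next set against cultured RasHIGH cells. Most of the 10 genes were far more abundant in the sorted tumour cells. Fos stood at 279, 366, 464 and 285 CPM in the 4 liver tumours and at 714, 367, 587 and 504.1 CPM in the 4 peritoneal tumours. Each of these libraries exceeded every culture, whose highest value was 103 CPM. Relative to RasHIGH, Fos was 8.98-fold higher in liver tumour cells (log2 fold change 3.17 ± 0.76, adjusted p = 0.00911) and 14.1-fold higher in peritoneal tumour cells (3.82 ± 0.82, adjusted p = 0.009).

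Fosb rose the most of the 10. It went from 23.2, 3.89 and 18.7 CPM in RasHIGH cells to 759, 595, 906 and 691 CPM in liver and 1105, 607, 889 and 956 CPM in peritoneal tumour cells. The difference was 48.5-fold in the liver (5.60 ± 0.58, adjusted p = 0.000143) and 58.8-fold in the peritoneum (5.88 ± 0.63, adjusted p = 0.000546). Jun was found at 367, 382, 501 and 471 CPM and at 637, 319, 432 and 364 CPM, against at most 68.3 CPM in RasHIGH cells. It was 8.79-fold higher in liver (3.14 ± 0.40, adjusted p = 0.000396) and 8.999-fold higher in peritoneal tumour cells (3.17 ± 0.46, adjusted p = 0.00184).

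The remaining Jun genes and Ier3 rose less. Junb reached 753 to 1059 CPM in liver and 757 to 1127 CPM in peritoneal tumour cells, 3.53- and 3.54-fold above RasHIGH. Ier3 reached 378 to 454 CPM and 319 to 518 CPM, 2.99- and 2.89-fold above RasHIGH. Jund was 2.76- and 3.07-fold higher (adjusted p = 0.0183 and 0.0213). Its call was lost at both sites without RasHIGH replicate 2 or 3 (adjusted p = 0.054 to 0.0759). Fosl2, at 111 to 207 CPM in tumour cells, was 1.99-fold higher in the liver and 1.58-fold in the peritoneum (adjusted p = 0.00186 and 0.0281). The peritoneal call for Fosl2 was lost without RasHIGH replicate 2 or peritoneal tumour replicate 4.

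**Figure D2:**
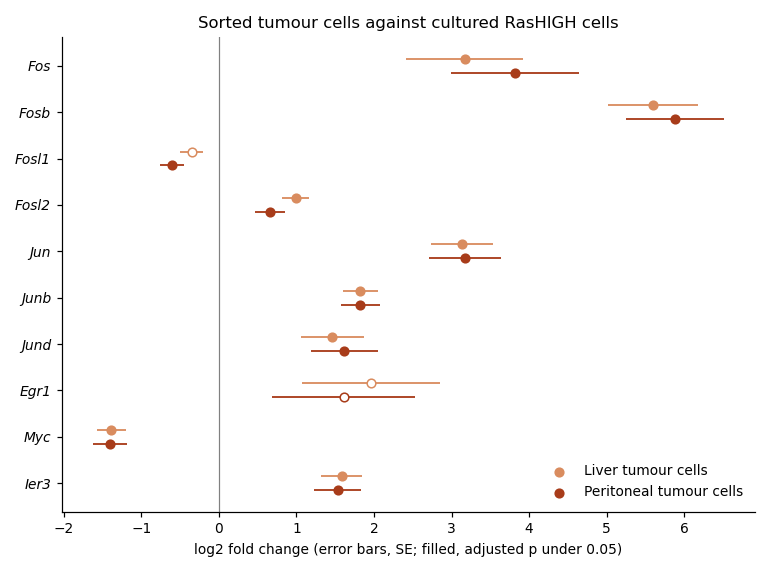
Log2 fold changes (x axis, error bars SE) of the 10 genes in sorted liver and peritoneal tumour cells against cultured RasHIGH cells; filled points passed an adjusted p under 0.05. Fosb lay farthest to the right, at 5.60 and 5.88, while Myc lay at -1.39 and -1.40 and Egr1 was not called at either site.

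Egr1 was high in all tumour libraries, at 1461, 1698, 1903 and 2058 CPM in the liver and 1948, 1064, 1327 and 1205 CPM in the peritoneum. Against RasHIGH it was not called in either site (1.96 ± 0.89, adjusted p = 0.103, and 1.61 ± 0.93, adjusted p = 0.199). The RasHIGH library with 1123 CPM overlapped the peritoneal range. Without it the log2 fold changes were 3.81 (adjusted p = 0.000337) and 3.45 (adjusted p = 0.00643). Against RasLOW cells in place of RasHIGH, Egr1 was also called, at 2.46 (adjusted p = 0.0135) and 2.11 (adjusted p = 0.037).

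Myc and Fosl1 went the other way. Myc was at 148, 128, 140.3 and 145 CPM in liver and 125, 142, 169 and 116 CPM in peritoneal tumour cells, below each of the 9 cultures. It fell 2.61-fold in the liver (log2 fold change -1.39 ± 0.19, adjusted p = 0.000618) and 2.64-fold in the peritoneum (-1.40 ± 0.22, adjusted p = 0.00245). Fosl1 was at 199 to 234 CPM in liver tumour cells (log2 fold change -0.35 ± 0.15, adjusted p = 0.0881), and passed only without RasHIGH replicate 1 (adjusted p = 0.0308) or 2 (adjusted p = 0.0492). It fell to 161 to 199 CPM in peritoneal tumour cells (-0.60 ± 0.15, adjusted p = 0.018), a call that was lost without peritoneal tumour replicate 2 or 3 and against RasLOW (adjusted p = 0.28).

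In all, 8 of the 10 genes were called in liver tumour cells, 7 higher and 1 lower, where 45.1% of 12971 genes were called, 23.0% higher and 22.1% lower. In peritoneal tumour cells 9 were called, 7 higher and 2 lower, against 37.9% of 12791 genes, 19.3% higher and 18.6% lower. The libraries did not overlap for 9 members at either site, compared with 48.9% and 45.0% of all genes. The median log2 fold change of the 10 genes was 1.70 and 1.61. These comparisons share the RasHIGH libraries. Over all 8 tumour libraries and 9 cultures, 6 of the 10 genes were higher in every tumour library, against 13.3% of 11046 genes, and 1, Myc, was lower, against 11.8%. Without the peritoneal tumour library of mouse 1, the same 9 members were called, with Fos at 3.70 and Fosb at 5.79. Leukocyte markers were also higher in tumour cells than in RasHIGH cells, 6 of 6 in the liver and 5 of 6 in the peritoneum. Their sums were 29.9 to 43.1 CPM and 22.5 to 223.8 CPM, against 4571 CPM or more in stroma. Fibroblast markers summed to 31.4 to 46.5 CPM and 166.5 to 1178 CPM in tumour cells, and 5 of 5 tested in the liver and 6 of 6 in the peritoneum were higher than in RasHIGH cells. Endothelial markers were higher for 3 of 3 tested at both sites, and hepatocyte markers for 4 of 5 in the liver and 1 of 2 in the peritoneum. Their part in these results was not tested.

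RasHIGH cultures ran in lane 4 and the tumour cells in lanes 1 to 3, so lane and group cannot be told apart there. Lane 3 held BMEL WT replicates 1 and 2 and the libraries of mouse 4. Within it, Fos was at 41.8 and 25.2 CPM in BMEL WT, at 285 CPM in liver and at 504.1 CPM in peritoneal tumour cells. For 8 of the 10 genes both tumour libraries of lane 3 exceeded both BMEL WT libraries, and for Myc both were lower. The share of all genes separated in this way was not counted, so these counts have no background to be read against. No RasHIGH library was in lane 3, and the part of lane in the differences from RasHIGH was not tested.

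Other genes of this class were counted in the same comparisons. Of 37 other immediate early genes tested in the liver comparison 26 rose, and 11 were not called. They included the growth arrest gene Gadd45g (2.38) and Csrnp1 (2.98), which codes for a nuclear protein, as log2 fold changes. In peritoneal tumour cells 23 of 36 rose, with Csrnp1 at 2.98 and Gadd45g at 2.16. The median log2 fold change of that list was 1.54 in the liver and 1.32 in the peritoneum, against -0.01 over all genes at each site. Among the partner bZIP genes, Atf3, a stress-induced partner of Jun, rose by 3.90 and 4.29, whereas Jdp2, a repressor of AP-1, fell by 2.07 and 2.45 on the log2 scale. Of 14 AP-1 target genes tested in the liver, 7 rose and 1 (Ccnd1) fell. In the peritoneum 6 of 15 rose.

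Among 12 delayed early genes of Erk signalling, 4 rose in liver tumour cells (Dusp5, Spred2, Spred1 and Spry4) and Spry1 fell, while only Dusp5 passed in peritoneal tumour cells (1.74). Of SRF and its cofactors 1 of 6 was called at each site: Elk3 lower (-0.31) in the liver and Mrtfa higher (0.43) in the peritoneum. Of 12 heat shock genes, which respond to protein damage, 5 rose at each site. These were the chaperone genes Dnajb1 (1.43 and 1.24), Bag3 (1.06 and 0.74) and Hspb1 (0.79 and 1.06), and Hspa1a and Hspa1b, near-identical copies whose reads may be split between them. Hspd1 fell at both sites and Hspe1 in the peritoneum, and the list's median was 0.11 and 0.05.

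Genes of the Myc network were counted too. Of 18 Myc target genes, 13 fell in liver tumour cells, among them the spermidine synthase Srm (-1.71) and the pyrimidine synthesis enzyme Cad (-1.61), and 1, Ldha, rose. In peritoneal tumour cells 14 of 18 fell, among them the genes of the nucleolar proteins Ncl (-1.02) and Ddx21 (-1.25). The list's median was -0.93 in the liver and -0.85 in the peritoneum. Of 10 Myc partners and antagonists tested, 4 rose and 2 fell in the liver, and 2 rose and 2 fell in the peritoneum, with medians of -0.02 and 0.04. Mxd1 and Mxi1, antagonists that compete with Myc for Max, rose by 2.495 and 2.39 in the liver and by 1.99 and 1.84 in the peritoneum. Max fell by 0.48 and 0.54, and Mlx by 0.43 and 0.39.

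Promoter sequence is shown for Fos, Fosb and Jun, which rose most, and for Fosl2, which rose least, because immediate early genes are known to be induced through short elements before their start. Within 500 bases before the start of the gene on mm9, a CArG box (the motif CC, 6 bases of A or T, GG, which is its own reverse complement) was found for Fos, Fosb and Egr1, that is 3 of the 10 genes, and in 2.7% of 22380 promoters. Egr1 held 5 boxes, between 407 and 74 bases before its start. The box of Fos lay 309 to 300 bases and that of Fosb 272 to 263 bases before the start. Each is given with 25 bases on either side on the strand of the gene, with the box in capitals, for Fos at chr12:86814506-86814565 and for Fosb at chr7:19895632-19895691.
Fos: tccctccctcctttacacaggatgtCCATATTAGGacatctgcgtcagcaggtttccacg
Fosb: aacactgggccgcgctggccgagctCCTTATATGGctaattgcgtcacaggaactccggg

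The core of the cAMP response element, TGACG on either strand, was searched in the 250 bases before the start in the RefSeq promoters of GRCm38.p6, which matched 7 of the 10 genes. It was found in 3 of these 7 (Fos, Fosb and Junb) and in 17.8% of 32851 promoters. The element TGACATCA, to which Jun with Atf2 can bind, was found for Jun, 45 to 38 bases before the start, and in 2.93% of promoters. TATAAA was found for Fos, 33 bases before its start, and in 12.4% of promoters. The consensus AP-1 site TGANTCA and the Myc site CACGTG were not found in these 7 windows, and were present in 6.75% and 6.02% of promoters. No CArG box lay in these shorter windows, against 1.47% of promoters. In the 500-base windows on mm9, TGACG was found for 7 of the 10 genes (27.6% of promoters), TGANTCA for Fos (12.1%) and CACGTG for Ier3 (10.2%). The 120 bases before the start are given for the genes that rose most, on the strand of each gene, with these motifs in capitals: Fos at chr12:85473770-85473889, Fosb at chr7:19310046-19310165 and Jun at chr4:95052223-95052342. That of Fosl2, at chr5:32136352-32136471, which rose least, is shown beside them and holds none of these motifs. The same windows of Ier3 and Jund, which rose 2.99- and 2.76-fold in liver tumour cells, held none of them either. That of Junb (3.53-fold) held TGACG. Whether these motifs bear on the levels was not tested.
Fos: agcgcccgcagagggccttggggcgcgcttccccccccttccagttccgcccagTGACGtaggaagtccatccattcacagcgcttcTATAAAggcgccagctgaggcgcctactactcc
Fosb: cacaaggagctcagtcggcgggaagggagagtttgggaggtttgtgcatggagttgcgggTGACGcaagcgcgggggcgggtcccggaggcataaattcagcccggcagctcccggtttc
Jun: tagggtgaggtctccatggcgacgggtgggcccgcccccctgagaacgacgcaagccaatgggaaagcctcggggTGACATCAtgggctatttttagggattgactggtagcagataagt
Fosl2: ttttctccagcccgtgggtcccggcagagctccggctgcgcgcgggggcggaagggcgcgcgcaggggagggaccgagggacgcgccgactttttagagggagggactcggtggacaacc

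To compare genes with each other, CPM were divided by the exon length of each gene in kilobases. On this scale the makeup of the Fos family differed between cultured and sorted cells. Fosl1 made up 75.0% ± 2.24 (SD, n = 3) of Fos family transcripts in BMEL WT, 75.3% ± 17.5 in RasLOW and 82.1% ± 8.75 in RasHIGH cells. It made up 25.4% ± 4.02 (n = 4) in liver and 18.1% ± 3.92 in peritoneal tumour cells, and 2.64% ± 0.557 and 1.60% ± 0.572 in the stroma. Its own level per kilobase was 161 ± 35.3 CPM in RasHIGH and 126 ± 9.78 CPM in liver tumour cells.

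Fosb took 1.17 to 1.94% of the family on average in the cultures and 39.1 to 42.2% in the 4 sorted groups. Fos took 7.92 to 14.2% in the cultures and 29.3 to 46.7% in the sorted groups. Fosl2 was more prominent in liver stroma (21.9% ± 3.44) than in the other 6 groups (4.20 to 13.0%). Without division by length its share was 34.7% ± 4.21 there and 32.5% ± 4.31 in BMEL WT, with overlapping libraries. In the Jun family Junb was the main transcript in every group, at 64.9 to 79.7% on average, and Jun ranged from 7.13 to 17.7%. The per kilobase levels assume that the annotated exon length is the length transcribed.

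**Figure D3:**
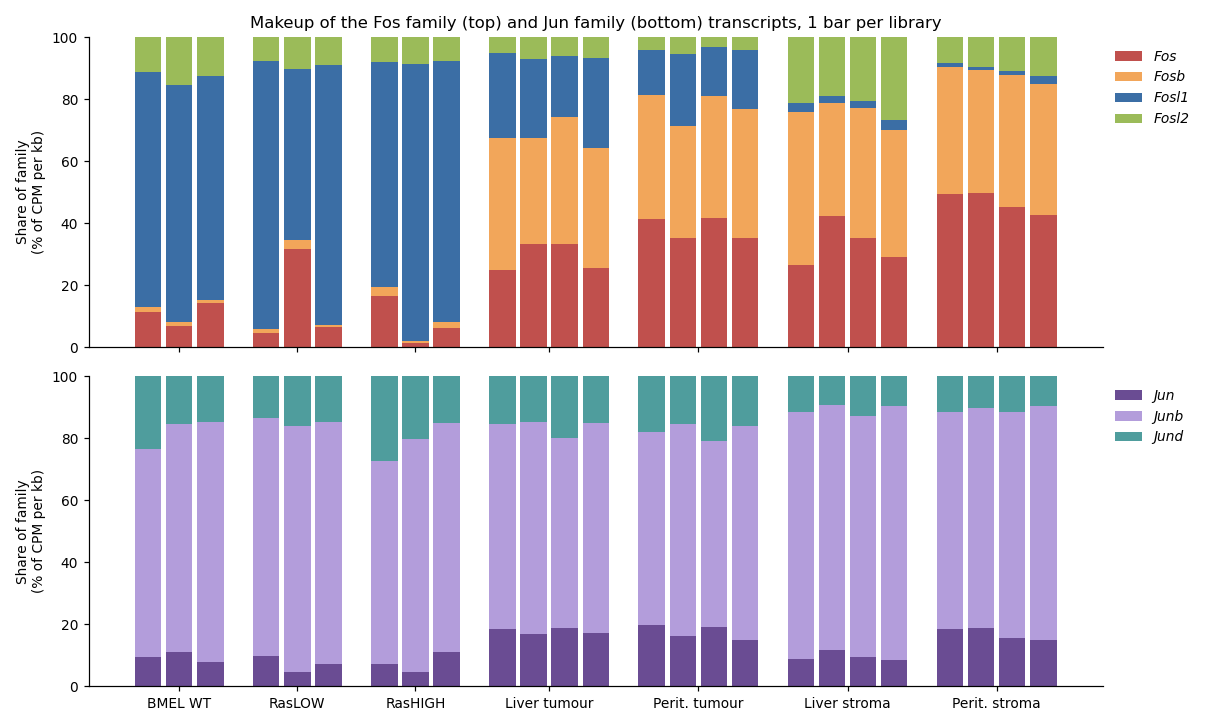
Share of each Fos family gene (top) and Jun family gene (bottom) in the family's summed CPM per kilobase, in percent, with 1 bar per library in the 7 groups. Fosl1 fills 55.1% or more of each culture's bar and 28.8% or less of each tumour bar, while Junb fills at least 60.1% of every bar in the lower panel.

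Tumour and stromal cells of the same mouse were dissociated and sorted side by side, and 9 of the 10 genes differed between them in the liver and 10 in the peritoneum. Of all genes tested, 77.8% and 76.6% were called in these comparisons, so a high count is shared by most genes. Fos in the stroma stood at 647, 1344, 1023 and 754 CPM in the liver and at 1970.3, 2481, 2185 and 1602 CPM in the peritoneum. It was lower in tumour cells in 4 of 4 mice at both sites, by 2.69-fold in the liver (adjusted p = 0.000127) and 3.54-fold in the peritoneum (adjusted p = 7.96e-05). Fosb, at 1707 to 1952 CPM in liver and 2535 to 3268 CPM in peritoneal stroma, was lower by 2.49- and 3.04-fold. The mean of Fos in liver tumour cells was 37.0% of that in liver stroma. In the liver the summed leukocyte and fibroblast markers of tumour cells stood at 1.499% or less of the stroma in each mouse and the summed endothelial markers at 13.2 to 43.9%. In the peritoneum leukocyte markers reached 3.49% and endothelial markers 14.4 to 70.9%. The endothelial sum of liver tumour cells was mostly Cdh5, as given above. Of the 4 endothelial markers, 2 had a mean under 1 CPM in liver tumour cells and 1 in peritoneal tumour cells. The part of other cells in these differences was not tested.

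Fosl2 had the largest difference of the 10 genes between the compartments at both sites. It stood at 1285, 1492, 1497 and 1744 CPM in liver stroma and at 819, 1196, 1291 and 1175 CPM in peritoneal stroma, against at most 207 CPM in tumour cells. Tumour cells were lower by 3.03 ± 0.15 on the log2 scale in the liver (adjusted p = 2.91e-09) and by 2.85 ± 0.20 in the peritoneum (adjusted p = 4.26e-06). Fosl1 was the reverse, at 44.1 to 59.9 CPM in liver and 38.8 to 65.7 CPM in peritoneal stroma. It was 4.12-fold higher in tumour cells of the liver (adjusted p = 6.44e-09) and 3.90-fold higher in those of the peritoneum (adjusted p = 1.36e-05), and higher in 4 of 4 mice each time.

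Junb, at 2300.2 to 2822 CPM in the stroma of both sites, was lower in tumour cells by 2.80- and 2.70-fold. Jund, at 444 to 740.3 CPM, was lower by 1.54- and 1.46-fold, and the liver ranges overlapped. In the peritoneum the call for Jund was lost without tumour replicate 4 or without stromal replicate 1 or 3 (adjusted p = 0.0534 to 0.0664). Jun was at 441, 614, 592 and 499 CPM in liver stroma, where tumour cells were lower in 4 of 4 mice but not called (-0.31 ± 0.13, adjusted p = 0.052). With mouse as a block it passed (adjusted p = 0.0193). In the peritoneum Jun was at 938 to 1211 CPM in the stroma and 2.30-fold lower in tumour cells (adjusted p = 0.000773). Ier3, at 513 to 607 CPM in liver and 724 to 870.0 CPM in peritoneal stroma, was lower in tumour cells by 1.31- and 1.83-fold.

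**Figure D4:**
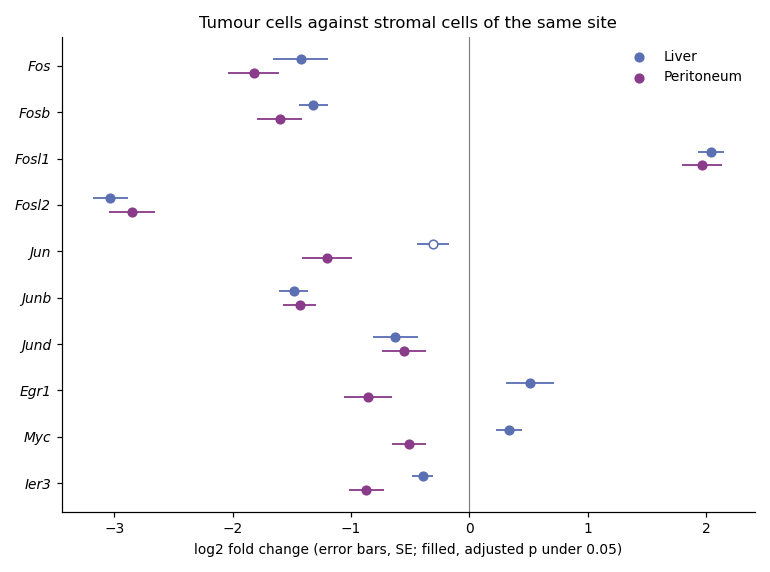
Log2 fold changes (x axis, error bars SE) of the 10 genes in tumour cells against stromal cells of the same site; filled points passed an adjusted p under 0.05. Fosl1 lay near 2 and Fosl2 near -3 at both sites, while Egr1 and Myc lay above 0 in the liver (0.51 and 0.33) and below 0 in the peritoneum (-0.85 and -0.51).

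Egr1 and Myc changed side with the site. In the liver stroma Egr1 was at 899, 1866, 1206 and 1049.6 CPM, and tumour cells were higher in 3 of 4 mice (log2 fold change 0.51 ± 0.20, adjusted p = 0.0365). That call was lost with the RLE scaling (adjusted p = 0.0712) and when any 1 of 6 libraries was left out, all but mouse 2 of the stroma and mouse 1 of the tumour cells (adjusted p = 0.0535 to 0.109). In the peritoneal stroma Egr1 was at 2482, 3343, 2660.3 and 2259 CPM, and tumour cells were lower in 4 of 4 mice (-0.85 ± 0.20, adjusted p = 0.00447). Myc in liver stroma (123, 111, 89.9 and 123 CPM) was below tumour cells in 4 of 4 mice (0.33 ± 0.11, adjusted p = 0.0132). In the peritoneal stroma (193, 182, 242 and 226 CPM) it was above them in 4 of 4 mice (-0.51 ± 0.14, adjusted p = 0.0103). In total 3 genes were higher and 6 lower in liver tumour cells, against 38.4% and 39.4% of genes, and 1 was higher and 9 lower in peritoneal tumour cells, against 39.5% and 37.1%. The libraries did not overlap for 7 members in the liver (all but Jun, Jund and Egr1), against 73.0% of genes, and for 10 in the peritoneum, against 71.4%. The median log2 fold change of the 10 genes was -0.51 in the liver and -1.04 in the peritoneum. With 1 fit over all 25 libraries the calls for Jund and Egr1 were lost at both sites and those for Myc and Ier3 in the liver. Without peritoneal tumour replicate 1 all 10 members stayed called in the peritoneum, with Fos at -2.07.

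Of 38 other immediate early genes, 26 were lower and 7 higher in liver tumour cells than in stroma, and 28 were lower and 5 higher in the peritoneum. Those lower in the liver included the orphan receptor genes Nr4a3 (-7.50) and Nr4a2 (-5.15), and those higher Ccn2 (1.96) and Ier5l (1.44). In the peritoneum the stress gene Gadd45b (-3.65) and the phosphatase gene Dusp2 (-3.91) were lower, and the growth factor gene Hbegf (1.95) and Zfp36l2 (1.203) higher. Of 13 delayed early genes of Erk, 10 were higher and 2 lower in liver tumour cells, and 8 were higher and 3 lower in peritoneal tumour cells. Among those higher were Etv4, at 2.24 and 2.75, and the Ras pathway inhibitor Spry2, at 2.22 and 2.14. The medians of the lists were -1.48 and -1.85 for the other immediate early genes and 0.70 and 1.02 for the delayed early genes, against 0.00 and 0.07 over all genes. Of 18 Myc target genes, 12 were higher and 4 lower in liver tumour cells than in stroma, against 38.4% and 39.4% of genes. In peritoneal tumour cells 12 were higher and 1 lower, against 39.5% and 37.1%. Myc itself was higher in liver and lower in peritoneal tumour cells than in stroma.

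Between the sites, stromal cells differed in 6 of the 10 genes, against 33.4% of 14755 genes. All 6 were lower in the liver, where 18.5% of genes were lower and 14.9% higher, and for all 6 the libraries did not overlap, as for 34.6% of genes. Fos was 2.25-fold lower in liver than in peritoneal stroma (adjusted p = 0.004), Egr1 2.20-fold (adjusted p = 0.00413) and Jun 2.07-fold (adjusted p = 0.000292). Myc was 1.94-fold lower (adjusted p = 0.000424), Fosb 1.61-fold (adjusted p = 0.00146) and Ier3 1.46-fold (adjusted p = 0.00195). Each was lower in 4 of 4 mice, and the median over the 10 genes was -0.62, against 0.02 over all genes. Fosl2 was higher in the liver in 4 of 4 mice (log2 fold change 0.38 ± 0.15, adjusted p = 0.0817) and passed with mouse as a block (0.40, adjusted p = 0.0179). With 1 fit over all 25 libraries, Jun, Myc and Ier3 kept their calls and Fos, Fosb and Egr1 lost theirs (adjusted p = 0.129, 0.206 and 0.258). Fibroblast markers moved with this difference: their sum was 3105 to 6474 CPM in liver and 44606 to 66274 CPM in peritoneal stroma, with 6 of 6 lower in the liver. Leukocyte markers summed to 5959 to 7225 and 4571 to 6412 CPM. The part of this makeup in the result was not tested. Of 38 other immediate early genes, 9 were lower in liver stroma, among them the matrix protein gene Ccn1 (-3.01) and Arc (-1.83), and 4 were higher (Hbegf, Pim1, Dusp2 and Mcl1). Of 18 Myc target genes, 1 was lower and 0 were higher in liver stroma, where Myc itself was lower.

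In tumour cells 0 members were called between the sites by edgeR, against 3.2% of 13074 genes. There 2 members, Fos and Fosl1, had an unadjusted p under 0.05, for which the share of all genes is not given here. DESeq2, which called more genes in all than edgeR in this comparison, called 1 member, Fos. Fos was lower in liver than in peritoneal tumour cells in 4 of 4 mice (-0.65 ± 0.21, adjusted p = 0.127), with log2 ratios within mice from -1.36 to -0.01. Fosl1 was higher in the liver in 4 of 4 mice and its libraries did not overlap, as for 11.9% of genes (0.25 ± 0.09, adjusted p = 0.145). In the peritoneal group the library of mouse 1, which held the most leukocyte and fibroblast marker counts, was highest for 8 of the 10 genes, while it was highest for 31.0% of all genes. The peritoneal library of mouse 2 was lowest for 7 of the 10, against 19.3% of genes. The liver library of mouse 1 was also lowest of its group for 7, against 31.2%. Whether marker content bore on these levels was not tested. Without the peritoneal library of mouse 1, Egr1 passed as higher in liver tumour cells (0.57, adjusted p = 0.0235) and the difference in Fos was -0.48 (adjusted p = 0.157).

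**Figure D5:**
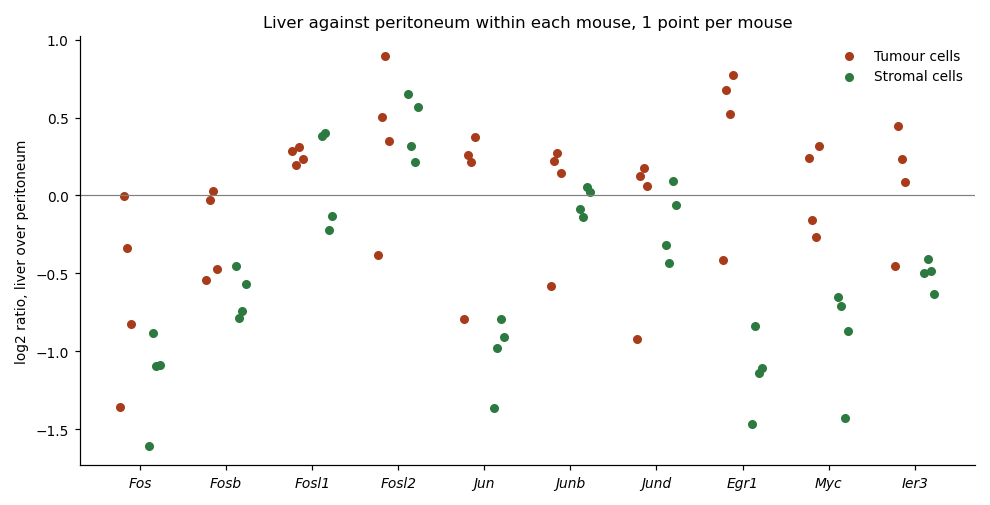
Log2 ratio of liver to peritoneum (y axis) for each gene, separately for the tumour and the stromal fraction, with 1 point per mouse. All 4 stromal points lie below 0 for Fos, Fosb, Jun, Egr1, Myc and Ier3. In tumour cells 3 of 4 mice lie above 0 for Fosl2, Jun, Junb, Jund, Egr1 and Ier3. That number is 4 for Fosl1, 2 for Myc, 1 for Fosb and 0 for Fos.

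The effect of the site differed between tumour and stromal cells for 3 of the 10 genes, all with higher values of the contrast, against 14.3% of 15331 genes, 6.79% with higher and 7.5% with lower values. The test of this difference gave 1.42 ± 0.32 for Egr1 (adjusted p = 0.00733), 0.94 ± 0.26 for Jun (adjusted p = 0.0257) and 0.89 ± 0.18 for Myc (adjusted p = 0.00451), as liver over peritoneum in tumour cells minus the same in stroma on the log2 scale. The median of all genes in this contrast was -0.12. For each of these genes the stroma was lower in the liver in 4 of 4 mice, whereas in tumour cells the liver was higher in 3 of 4 mice for Egr1 and Jun and in 2 of 4 for Myc. Ier3 was at 0.53 ± 0.17 (adjusted p = 0.052) and Fos at 0.45 ± 0.34 (adjusted p = 0.418). The call for Jun was lost when any 1 of 6 libraries was left out (adjusted p = 0.0504 to 0.0539). Without the peritoneal tumour library of mouse 1 Egr1, Jun and Myc were at 1.73, 1.28 and 0.94, and Ier3 passed (0.76, adjusted p = 0.00188). With 1 fit over all 25 libraries Myc was called and Jun (adjusted p = 0.123) and Egr1 (adjusted p = 0.404) were not.

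The study used a change of over 1.5 on the log2 scale with p under 0.01 for its Ras genes in culture, and a change of over 1 with p under 0.05 in comparisons of tumour cells between sites, with other combinations elsewhere. These 2 rules were also applied here, the first to comparisons between cultures and the second to those with sorted cells, on the unadjusted p-values of the present fits. In liver tumour cells against RasHIGH 7 members passed, against 23.5% of genes, and 7 in peritoneal tumour cells, against 20.1%. In tumour cells against stroma 5 passed in the liver, against 44.0% of genes, and 6 in the peritoneum, against 43.7%. Between the stromal groups 3 passed (14.3% of genes), in the interaction 1 (10.6%) and between the tumour sites 0 (3.52%). Between cultures 0 passed, where 4.4% of genes did for RasLOW and 9.65% for RasHIGH against BMEL WT and 2.12% for RasHIGH against RasLOW.

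By group means, the order was alike for Fos, Fosb, Jun, Junb, Jund and Ier3 in that both stromal groups were above both tumour groups and these above the cultures. For Fos, peritoneal stroma did not overlap liver stroma, liver stroma overlapped peritoneal tumour cells, both tumour groups overlapped, and liver tumour cells did not overlap RasLOW. Myc was highest in RasHIGH and lowest in liver stroma, and RasLOW, BMEL WT, peritoneal stroma and liver tumour cells followed each other without overlap.

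The genes most like each member over the 25 libraries, by Pearson's r of log2(CPM + 1) among 11046 genes of at least 5 CPM, were taken as a description, since the libraries share groups and mice. Fos was most like Atf3 (r = 0.971), Jun and Fosb. Fosb was most like Egr2 (0.984), As3mt and Slc25a45, and Ier3 was most like Egr2 (0.981), Kif26b and Fosb. Egr2, a relative of Egr1, had a mean of 1.88 CPM in RasHIGH and 68.0 CPM in liver tumour cells. Jun was most like Klf2 (0.974), Junb most like Zfp36 (0.987), whose product destabilizes early transcripts, and Jund most like Tcn2 (0.966). Fosl2 was most like Hcar2 (0.991), the kinase gene Pim1 and the cytokine receptor gene Csf2rb2. Fosl1 was most like Slc20a2 (0.970), Egr1 most like Fos (0.928) and Myc most like Enah (0.921), a regulator of actin.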

How the data were processed

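RNA was sequenced from 9 cultures of BMEL cells and from 16 sorted fractions of tumours in 4 mice. The deposited table holds raw read counts per gene, which the authors made from poly(A) libraries (NuGEN Universal Plus mRNAseq). The study's methods name TopHat2 and mm9, whereas the submitters' processing notes name FastQC, Bowtie 0.12.2, mm8 and mm10. The counting program, strand setting and annotation are not given in the sources used here, and reads of overlapping or antisense genes cannot be told apart. Differential expression was computed from the counts with R 4.3.3 and edgeR 4.0.16: genes with low counts were removed with filterByExpr (minimum count 10), libraries were scaled by TMM, and each pair of groups was fitted alone with the quasi-likelihood F-test. Genes were called at a Benjamini-Hochberg adjusted p under 0.05 over all genes tested. The SE is the log2 fold change divided by the square root of F. The test of the difference between sites was an interaction term over the 4 sorted groups.

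Fold changes come from these fits and printed CPM from TMM scaling over all 25 libraries. Totals per library were 20818989 to 51241336 counts. Intervals of low counts cover counting error only. Mouse numbers pair the sorted libraries because fractions came from the same animal. The main fits, including the interaction, held no mouse term, so their p-values treat the fractions of 1 mouse as independent. The correlation of deviations between fractions of 1 mouse ran from 0.0625 to 0.305 for tumour against stroma, from -0.160 to 0.0523 between tumour cells of both sites and from -0.00792 to 0.339 between the stromal groups. Alternatives were DESeq2 1.42.0, RLE scaling, no filter, 1 fit over all libraries, the study's thresholds, a block for mouse or replicate number, RasLOW as the cultured reference, and leaving out each library. The procedure was checked on simulated data. The 10 genes and the gene lists were chosen with earlier results of these data known. All 10 genes are named; from each list the genes named were the lowest p-values, up to 2 in each direction, and those that a count of 5 or fewer refers to. Gene positions are on mm9 (GENCODE vM1), and promoter sequences are from the mm9 genome and RefSeq (GRCm38.p6). No position or sequence is given for Egr1. A member of the AP-1 target list is not reported here by name.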

Additional observations from a re-analysis of the deposited data

Results flagged for a closer look

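The effect of the site differed between tumour and stromal cells for 3 of the 10 genes by the interaction term of edgeR's fit over the 4 sorted groups. The log2 ratio of liver to peritoneum in tumour cells minus that in stromal cells was 0.94 for Jun (adjusted p = 0.0257), 1.42 for Egr1 (adjusted p = 0.00733) and 0.89 for Myc (adjusted p = 0.00451). In each, the stroma was lower in the liver in 4 of 4 mice. The fibroblast markers, whose sum was lower in liver than in peritoneal stroma, moved with the stromal part of these values, and their part in it was not tested.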

How the results depend on the processing

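Of 1490 values for single genes under another setting, 1322 kept their direction and their side of the threshold, 73 lost a call, 28 gained one and 67 turned direction, all of genes that were not called in the comparison. For RasLOW against BMEL WT, 1 gene was called, with 0 under the study's thresholds (as applied here, a log2 fold change above 1.5 and unadjusted p under 0.01 for cultures, above 1 and under 0.05 for sorted cells), 0 with a replicate block, 0 with both, and 0 to 3 on leaving out 1 library. With the block the log2 fold change of Jun was -0.94 (adjusted p = 0.0557). Replicate numbers of cultures are only numbers: deviations of equal numbers correlated from -0.676 to 0.344. For RasHIGH against BMEL WT, 0 genes were called, 1 (Fosb) with 1 fit over all libraries, and 0 to 2 on leaving out 1 library. Between liver and peritoneal tumour cells 0 were called, 1 with DESeq2, and 0 to 1 on leaving out 1 library. Between the stromal groups 6 were called, 3 under the study's thresholds, 3 with 1 fit over all libraries and 3 with the mouse block and the study's thresholds. For tumour against stroma of the liver, 9 were called, and 5 under each of those settings. For that of the peritoneum 10 were called, 6 under the study's thresholds and 6 with the block added. For the interaction 3 were called, and 1 under the study's thresholds (Egr1), 1 with 1 fit over all libraries (Myc) and 1 with the block and the study's thresholds. DESeq2 and the fit without a filter added Ier3, as did leaving out replicate 1 of liver tumour, peritoneal tumour or peritoneal stromal cells. The mouse block without those thresholds changed no call beyond Fosl2 between the stromal groups and Jun in the liver. The combined setting was chosen after seeing the data, as was a block that paired RasHIGH and RasLOW libraries with consecutive identifiers. That block also paired the remaining libraries, RasHIGH replicate 3 and RasLOW replicate 1, whose identifiers are not consecutive. It called 0 members.

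On leaving out 1 library, log2 fold changes crossed 0 as follows. In RasLOW against BMEL WT the range was -0.57 to 0.86 for Fos and -0.75 to 1.34 for Egr1, both lowest without RasLOW replicate 2. In RasHIGH against BMEL WT it was -0.92 to 0.60 for Fos, -0.49 to 1.89 for Egr1, -0.28 to 0.35 for Ier3 and -0.86 to 0.18 for Jund, all lowest without RasHIGH replicate 1. Between RasHIGH and RasLOW it was -1.40 to 0.64 for Fos, -0.014 to 0.47 for Fosl1, -0.060 to 0.17 for Fosl2, -0.088 to 0.58 for Jun, -0.44 to 0.19 for Junb, -0.15 to 0.99 for Jund, -1.34 to 2.08 for Egr1 and -0.15 to 0.47 for Ier3. Between liver and peritoneal tumour cells it was -0.17 to 0.22 for Jun, -0.091 to 0.13 for Junb, -0.34 to 0.023 for Jund, -0.068 to 0.13 for Myc and -0.056 to 0.20 for Ier3, and between the stromal groups -0.063 to 0.19 for Fosl1. In the interaction it was -0.24 to 0.10 for Fosl2, -0.087 to 0.22 for Junb and -0.17 to 0.24 for Jund. Other settings turned Fos in RasHIGH against BMEL WT (-0.58 with the replicate block, also under the study's thresholds) and, between tumour sites, Jun (0.017 with the block, also under those thresholds) and Junb (-0.00081 with the RLE scaling). In the interaction they turned Junb (0.021 with DESeq2, 0.021 with RLE, 0.072 without a filter and 0.039 with 1 fit) and Jund (0.044 without a filter and 0.015 with 1 fit). The cause was not tested.

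Counts over all genes moved by more than 1.5 times as follows. RasLOW against BMEL WT had 734 calls, and 1639 with DESeq2, 2440 with 1 fit over all libraries and 295 with the replicate block. RasHIGH against BMEL WT had 2789, and 1190 under the study's thresholds and 4347 with 1 fit. RasHIGH against RasLOW had 9, and 253 under the study's thresholds, 416 with DESeq2, 77 without a filter, 917 with 1 fit, 0 with the replicate block and 238 with the identifier block. Liver against peritoneal tumour cells had 419, and 1235 with DESeq2 and 102 with the mouse block. The study's thresholds gave 2107 in place of 4926 between the stromal groups, 6437 in place of 11376 and 6377 in place of 11168 for tumour against stroma, and 3050 in place of 5851 and 2571 in place of 4846 against RasHIGH. In the interaction 1 fit gave 1180 in place of 2191. On leaving out 1 library, RasLOW against BMEL WT ranged from 148 (without BMEL WT replicate 2) to 2340 (without RasLOW replicate 2), RasHIGH against BMEL WT from 1517 (without BMEL WT replicate 2) to 3896 (without RasHIGH replicate 1), and RasHIGH against RasLOW from 0 to 16. Liver against peritoneal tumour cells ranged from 41 (without liver tumour replicate 2) to 884 (without peritoneal tumour replicate 1), and peritoneal tumour cells against RasHIGH from 3154 (without RasHIGH replicate 2) to 7050 (without RasHIGH replicate 1). The shares of all genes called, given beside the members, move with these counts. The RLE scaling moved the median of all genes from 0.07 to -0.07 in the peritoneal tumour against stroma, where it turned no member's direction. Without division by length Fosl1 made up 65.9% of Fos family counts in RasHIGH and 14.7% in liver tumour cells. With 3 cultures a group, the spread of Fos and Egr1 limited what could be detected.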
